A study of Mus musculus with 23 samples.

Results

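Glucose breakdown and the response to low oxygen were followed through 33 named genes in sorted mouse CD4+ T cells. The genes were taken from a fixed list, and each was represented by its probe set of highest mean log2 intensity over 23 arrays. A probe set is the group of short array probes that reads 1 transcript, and intensity is its brightness. Of the 33 genes, 29 had a probe set that named them alone and was no array control, among 18193 genes measured in the same way. Of these 29, 27 passed the filter on dim genes, a group mean above 77.0 intensity units (6.27 on the log2 scale) in at least 1 of 9 groups. Slc16a3, a lactate exporter, and Vegfa, a growth factor for blood vessels, stayed below it in all 9 groups, with highest group means of 4.79 and 6.04 log2 units. No probe set named Gpi1 or Eno1 alone, Bnip3l shared its probe sets with another name, and Gapdh had only control probe sets of its own, whose 3′ level ran from 11.29 to 13.16.

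Glycolysis takes glucose in through Slc2a transporters, traps it with hexokinases, splits it at aldolase, and ends in pyruvate, which lactate dehydrogenase turns into lactate. In normal oxygen, prolyl hydroxylases of the Egln family mark the transcription factors HIF-1α (Hif1a) and HIF-2α (Epas1) for breakdown. When oxygen is short, or when T cell receptor and mTOR signals drive HIF-1α, these factors raise many glycolytic enzymes together with targets such as Bnip3, P4ha1 and Ndrg1. Activated T cells are known for high glycolysis, and regulatory T cells (Treg, marked by the factor Foxp3) for relying on it less.

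The mice were 6 to 10 weeks old, and every array was made from cells of several pooled mice. From C57BL/6-Foxp3/GFP reporter mice, 4 to 6 a pool, came Foxp3+ and Foxp3- CD4+ cells of the small intestinal lamina propria, called gut cells here (2 arrays each). The same strain gave Foxp3+ cells of peripheral lymph nodes in 3 kinds of 2 arrays each, CD103-Klrg1- (double-negative), CD103+Klrg1- and CD103+Klrg1+ (double-positive). For homeostatic conversion, Foxp3-GFP- CD4+ cells of BDC2.5/NOD mice, which carry 1 transgenic T cell receptor, went into NOD RAG-/- hosts, which have no lymphocytes of their own, and after 14 days their Foxp3+ and Foxp3- progeny were sorted from spleen and lymph nodes (3 arrays each, 2 to 3 mice a pool). For conversion by a dendritic-cell-targeted peptide, CD4+CD25- cells of HA6.5/Thy1.2/RAG-/-/Balb/c mice, again with 1 receptor, went into Balb/c hosts given 1 injection of 50 ng DEC-HAPeptide per mouse. Their CD25+ and CD25- progeny were sorted 3 weeks after transfer (3 and 4 arrays, 5 to 10 mice a pool) and are called DEC cells here. All groups were gated as CD3+ and free of B220, CD8a and CD11b/c, and all were labelled male.

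Array medians lay between 63.7 and 81.1 intensity units. DEC CD25- replicates 3 and 4 were the dimmest, at 68.5 and 63.7, and replicate 3 had a Gapdh 3′ signal 6.59 log2 units above its 5′ signal, a sign of short RNA, against 1.63 to 3.92 on the other arrays. Foxp3 had group means of 10.35 to 11.21 in the Foxp3+ sorts and in DEC CD25+ cells, 4.65 and 4.76 in the Foxp3- sorts, and 7.97 ± 0.71 (SD, n = 4) in DEC CD25- cells, which were sorted on CD25 and not on Foxp3. Il2ra, which encodes CD25, was at 10.16 and 6.39 in DEC CD25+ and CD25- cells, and over the lymph node kinds, in the order given, Itgae (CD103) was at 8.09, 12.80 and 13.26 and Klrg1 at 7.61, 8.90 and 14.16. The 7 DEC arrays had Xist, the RNA of the inactive X chromosome, at 11.85 to 13.25 against 6.47 to 7.67 on the other arrays, which goes against their labelled sex. The T cell genes Cd3e, Cd3d, Cd3g, Cd4, Cd2, Cd5 and Cd28 were above the filter in all 9 groups. Of 13 genes of myeloid and dendritic cells, 12 were above it in both homeostatic groups, 10 in DEC CD25+ cells, 7 in DEC CD25- cells and 5 or 6 elsewhere. Their summed intensity was 2825 to 17433 on homeostatic arrays, 1013 to 4505 on DEC arrays and 980 to 2029 on the gut and lymph node arrays.

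Differences below are on the log2 scale with their standard error, and a gene was called where limma's moderated test over 12516 genes gave a Benjamini-Hochberg adjusted p under 0.05. The labels do not say that replicates came from separate experiments, so p-values measure the spread between these arrays. In sorted bulk samples, fewer cells with a transcript and less of it per cell cannot be told apart. Of the 27 tested genes, 14 were called in at least 1 of 9 comparisons and 13 in none. The 14 include Eno2, which passed the filter only in the 2 groups where it is high, so its calls are a description.

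The letters ACGTG, the core that HIF factors bind, stood on either strand in the bases just before the gene start of many of these genes. RefSeq promoter windows (build GRCm38.p6) were at hand for 29 of the listed genes, 45 windows in all, and 23 of them (51.1%) held ACGTG, against 16.6% of all 32851 windows of the same length. The longer CACGTG, which overlaps it and is read by Myc and its partners, stood in 6 windows (13.3%), against 6.02% of all. A match is a description of letters and not a bound site, and no difference below was tied to one. Of 12 genes described array by array below that had a window, 8 held ACGTG, and these 8 are printed to show the letters in genes whose values are described below, 5′ to 3′ on the gene's strand as stretches around a match, with each ACGTG (or CACGT, its other strand) in capitals. They lie just before the genes' starts, at chr4:119108684-119108738 (Slc2a1, plus strand), chr6:82774477-82774531 (Hk2, minus), chrX:106186944-106186998 (Pgk1, plus), chr7:46845745-46845799 (Ldha, plus), chr12:54204074-54204124 (Egln3, minus), chr7:138909584-138909638 (Bnip3, minus), chr10:59323255-59323295 (P4ha1, plus) and chr14:45318606-45318660 (Ero1a, minus).
Slc2a1: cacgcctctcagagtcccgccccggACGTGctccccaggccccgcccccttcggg
Hk2: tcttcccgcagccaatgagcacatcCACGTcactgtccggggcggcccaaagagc
Pgk1: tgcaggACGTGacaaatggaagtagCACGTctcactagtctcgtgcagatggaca
Ldha: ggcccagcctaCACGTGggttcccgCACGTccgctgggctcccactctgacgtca
Egln3: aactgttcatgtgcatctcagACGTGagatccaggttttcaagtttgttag
Bnip3: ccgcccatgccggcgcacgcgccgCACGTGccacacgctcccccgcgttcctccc
P4ha1: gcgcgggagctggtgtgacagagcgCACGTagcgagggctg
Ero1a: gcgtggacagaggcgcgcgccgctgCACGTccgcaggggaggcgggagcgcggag
The whole Ldha window held 5 matches, and in Bnip3 and Ldha the run CACGTG is the longer motif, which reads ACGTG on both strands. The windows of Aldoc, Tpi1, Eno2 and Pdk1 held no ACGTG, which says only that these letters are not there.

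Averaged over the 27 tested genes, the level was highest in gut Foxp3+ cells, at 9.81 ± 0.19 (SD, n = 2), and lowest in DEC CD25- cells, at 8.82 ± 0.38 (SD, n = 4). Single DEC CD25- arrays ranged from 8.29 to 9.19, so the spread among them was wider than most gaps between groups. The remaining group means lay between 9.24 (DEC CD25+) and 9.58 (lymph node double-positive). The genes did not move as 1 block. The median correlation between 2 of them over the 23 arrays, which fall into 9 groups and differ in brightness, was 0.28 over 351 pairs. Tpi1, Aldoc and Slc2a3 followed the mean of the others most closely, at r = 0.84, 0.83 and 0.82. Slc2a1 ran against it at r = -0.72, and Epas1 was unrelated at r = 0.052.

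**Figure D1:**
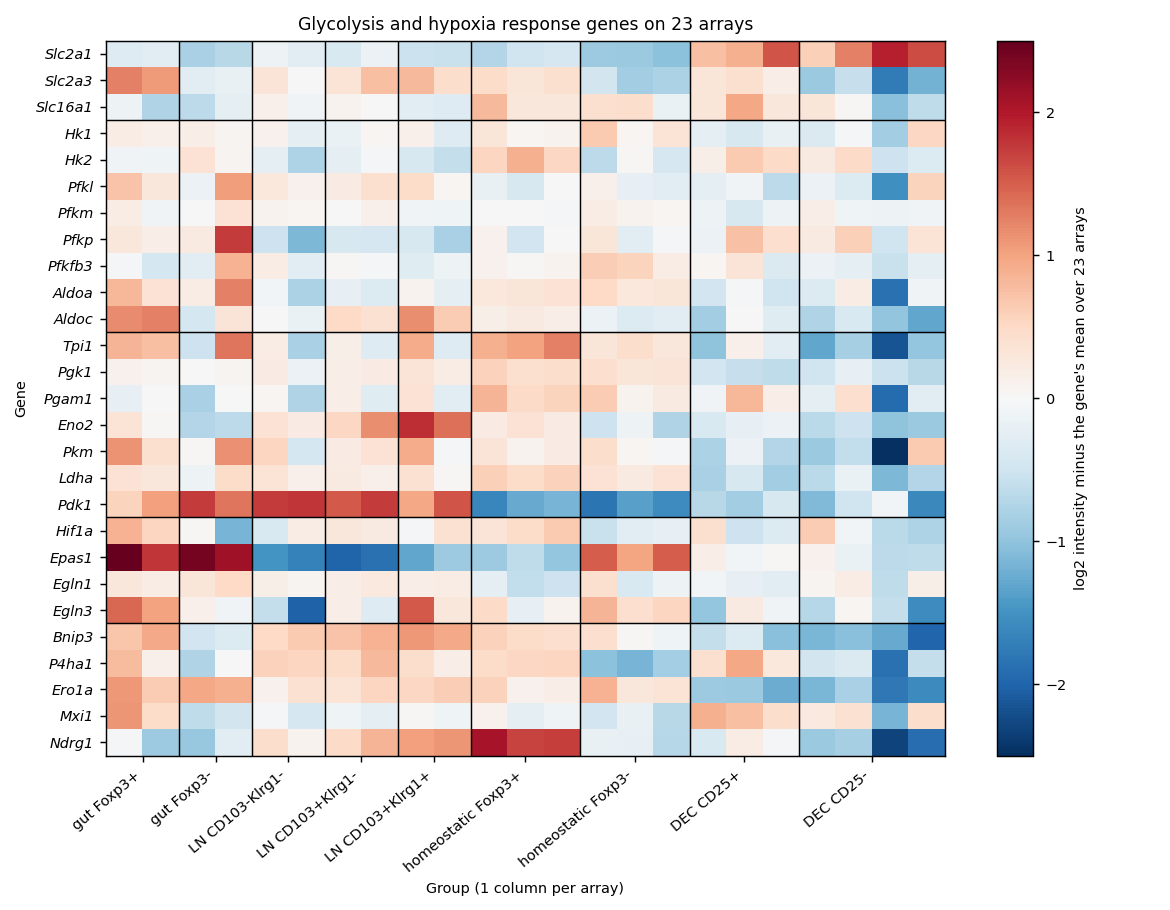
Heat map of log2 intensity minus each gene's own mean over 23 arrays, for 27 genes (rows, split by role) and 23 arrays (columns, split by group). Epas1 is high in gut and homeostatic Foxp3- cells, Ndrg1 in homeostatic Foxp3+ cells, Slc2a1 in DEC cells, and Pdk1 in all gut and lymph node cells; the third DEC CD25- column is the array with the lowest mean, 8.29.

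In the gut, 3 genes were higher in Foxp3+ than in Foxp3- CD4+ cells. They were the glucose transporter Slc2a3, the aldolase Aldoc and Bnip3, a mitochondrial protein of mitophagy. None was lower. These 3 are 11.1% of the 27 tested genes, where 2.70% of all genes were called, 1.41% as higher. The median difference over the 27 was 0.13, against -0.0075 over all genes. Slc2a3 read 12.00 and 11.80 on the Foxp3+ arrays and 10.46 and 10.54 on the Foxp3- arrays. The groups were far apart, 2.64-fold on the linear scale (1.40 ± 0.28, limma adjusted p = 0.00676). Bnip3 was at 9.02 and 9.27 in Foxp3+ cells and at 7.84 and 7.97 in Foxp3- cells. Its arrays did not overlap either, and the difference was 1.24 ± 0.27 (limma adjusted p = 0.0131). Aldoc, which splits fructose bisphosphate, stood at 8.17 and 8.24 against 6.54 and 7.31. The 2 Foxp3- arrays differed from each other there, and the difference between groups was 1.28 ± 0.30 (limma adjusted p = 0.0220).

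Other hypoxia genes had unequal means in the gut without passing the test. Mxi1, a Myc antagonist, had means of 9.58 and 8.26 (adjusted p = 0.0945), and Hif1a 13.33 and 12.05 (0.171). Arrays did not overlap for 13 of the 27 genes (48.1%), 10 higher in Foxp3+ and 3 in Foxp3- cells, where 30.9% of all genes separated in this way. Epas1 was at 10.34 and 10.36, with a difference of -0.019 ± 0.29. Foxp3- replicates 1 and 2 disagreed in genes of upper and lower glycolysis, with Tpi1 (triose phosphate isomerase) at 8.43 and 10.29 and a Gapdh 3′ to 5′ gap of 3.17 and 1.63. Pfkp spanned 10.58 to 12.09 over these 2 arrays, while Pgk1 spanned only 13.42 to 13.50. The part of this in the result was not tested. Of 5 genes of CD8 and NK cells, 1 was above the filter in Foxp3+ and 2 in Foxp3- cells, with sums of 281 to 350 against 540 to 614, and Klrd1 was lower in Foxp3+ cells (5.33 and 8.13, adjusted p = 0.0438); their part was not tested either. The calls rest on few arrays. With the 4 gut arrays fitted alone none of the 3 was called. Slc2a3 lost its call without Foxp3+ replicate 1 (adjusted p = 0.0995), Aldoc without Foxp3+ replicate 1 (0.145), Foxp3+ replicate 2 (0.150) or Foxp3- replicate 1 (0.173), and Bnip3 without any 1 of the 4 arrays (0.0601 to 0.144).

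Among homeostatic progeny in NOD RAG-/- hosts, Foxp3+ cells were higher in 4 genes and lower in 1. The higher genes were Ndrg1, a stress and hypoxia target, the collagen prolyl hydroxylase P4ha1, Slc2a3, and the hexokinase Hk2, while Epas1 was lower. These 5 are 18.5% of the 27 genes, beside 1.76% of all genes (0.751% higher, 1.01% lower), and the median difference was 0.23, against -0.027 over all. Cell cycle genes had sums of 39190 to 45613 in Foxp3+ and 25017 to 35355 in Foxp3- cells. Their median difference was 0.65 with none of 23 called, and their part in the result was not tested. Slc2a3 was at 11.19, 11.03 and 11.14 on Foxp3+ arrays and 10.28, 9.86 and 9.95 on Foxp3- arrays, a difference of 1.09 ± 0.23 (limma adjusted p = 0.0140). Hk2, which traps glucose in the cell, read 8.86, 9.21 and 8.84 against 7.66, 8.34 and 7.90. Neither gene's arrays overlapped between the groups, although Hk2 was the weakest call of the 5 at 1.00 ± 0.25 (limma adjusted p = 0.0434).

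Epas1 showed the opposite direction. Its levels were 7.21, 7.47 and 7.14 in Foxp3+ cells and 9.62, 9.10 and 9.63 in Foxp3- cells. Every Foxp3- array lay above every Foxp3+ array, 4.51-fold by the means (-2.17 ± 0.24, limma adjusted p = 3.03e-05). A dim 2nd Epas1 probe set, with a mean of 5.51 over all arrays and so below the filter, differed by -0.021. The myeloid sums on the same arrays were 2825, 10916 and 6041 for Foxp3+ replicates 1 to 3, and 5379, 17433 and 7427 for Foxp3- replicates 1 to 3. Genes of red cell precursors had sums on these arrays of 472 to 2025 in Foxp3+ and 699 to 3160 in Foxp3- cells against 270 to 392 on all other arrays. Of 5 genes of CD8 and NK cells, 4 were above the filter in both homeostatic groups, with sums of 1546 to 2676 in Foxp3+ and 3724 to 4267 in Foxp3- cells, where Klrd1 stood at 8.34 and 10.87 (adjusted p = 0.0308) and Cd8b1, below the filter, at 6.10 and 6.02. Of 8 endothelial and stromal genes, 2 were above the filter in Foxp3+ and 4 in Foxp3- cells, with sums of 558 to 643 and 579 to 616. The part of these cells in the results was not tested.

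Among the hypoxia targets, Ndrg1 and P4ha1 were called in this pair. Ndrg1 read 11.29, 10.92 and 10.94 in Foxp3+ cells and 9.03, 9.02 and 8.50 in Foxp3- cells. The lowest Foxp3+ array was well above the highest Foxp3- array (2.20 ± 0.34, limma adjusted p = 0.00124), and its other probe sets differed by 2.44, 1.27, 1.18 and 0.24. P4ha1 was at 7.92, 7.97 and 8.0 against 6.44, 6.29 and 6.60. The 3 Foxp3+ arrays were nearly equal, and the difference was 1.52 ± 0.32 (limma adjusted p = 0.0145). Arrays did not overlap for 14 of the 27 genes (51.9%), against 22.3% of all genes. Bnip3 was at means of 8.80 and 8.43, Aldoc at 7.17 and 6.72 and Hif1a at 13.10 and 12.27, none of them called.

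With 1 array left out, Epas1 and Ndrg1 kept their calls in each of the 6 fits and the other 3 did not. Hk2 was lost without Foxp3+ replicate 1 (0.110), 2 (0.191) or 3 (0.103) and without Foxp3- replicate 1 (0.269) or 3 (0.167). P4ha1 was lost without any 1 Foxp3+ array or without Foxp3- replicate 1 or 2 (0.0544 to 0.0703), and Slc2a3 without Foxp3+ replicate 1 or 3 or Foxp3- replicate 2 or 3 (0.0660 to 0.0763). All 5 calls held with the pairing of equal replicate numbers in the model (0.000233 to 0.0210).

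Among DEC progeny, 1 gene was higher in CD25+ than in CD25- cells, Slc2a3, and none was lower. That is 3.70% of the 27 genes, where 0.495% of all genes were called, 0.399% as higher. Slc2a3 read 11.03, 11.13 and 10.91 on CD25+ arrays and 9.80, 10.16, 8.98 and 9.56 on CD25- arrays. The lowest CD25+ array was above the highest CD25- array, and the difference was 1.40 ± 0.21 (limma adjusted p = 0.00341). Without the 2 dimmest CD25- arrays it was 1.05 (adjusted p = 0.0127), and with replicate numbers paired it was 1.38 (0.0114). Its 2nd probe set with signal differed by 1.09.

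P4ha1 and Ndrg1, the same hypoxia targets as in the homeostatic pair, came closest to the threshold among the rest. P4ha1 was at 7.86, 8.43 and 7.72 against 7.0, 7.10, 5.60 and 6.87 (1.36, adjusted p = 0.0502). Ndrg1 was at 8.84, 9.41 and 9.20 against 8.30, 8.40, 6.90 and 7.31 (1.42, adjusted p = 0.0575). No array overlapped in either gene, and CD25- replicate 3 was the lowest in both. Over all genes the median difference was 0.16 here, which became -0.050 after quantile and -0.023 after cyclic loess normalization, so the module's median of 0.36 is to be read against that shift. Of all called genes, 50 were higher and 12 lower, 44 and 39 after quantile normalization, 38 and 34 after cyclic loess, and 22 and 31 without the 2 dimmest CD25- arrays, where the median was 0.0045. Arrays did not overlap for 6 of the 27 genes (22.2%), against 5.46% of all. The count of called members was 2 with paired replicate numbers, 3 without CD25+ replicate 1, 4 without CD25- replicate 1, 3 without CD25- replicate 2 and 2 without CD25- replicate 3, but 0 with the 7 DEC arrays fitted alone.

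**Figure D2:**
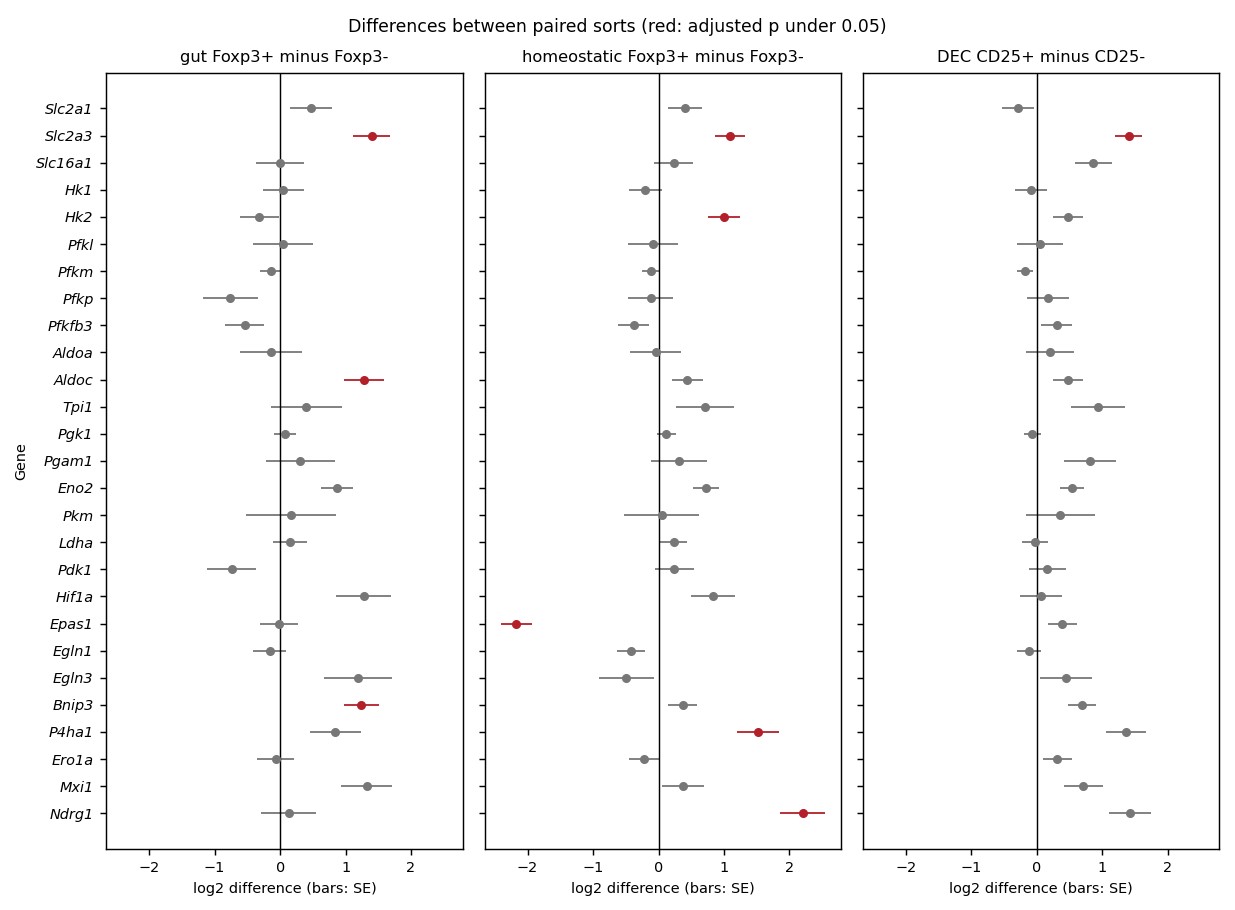
Log2 differences (points) with standard errors (bars) of 27 genes in 3 pairs of sorts that share no array, red where limma's adjusted p was under 0.05. Slc2a3 is red in each panel at 1.40, 1.09 and 1.40, and Epas1 lies near 0 in the gut and at -2.17 in the homeostatic pair.

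The 3 pairs share no array, so their differences could be set against each other gene by gene. For Slc2a3 the difference was 1.40 in the gut, 1.09 in the homeostatic pair and 1.40 in the DEC pair, and none of the differences between pairs was called, at 0.31 ± 0.36 for gut minus homeostatic, -0.0036 ± 0.35 for gut minus DEC and -0.31 ± 0.31 for homeostatic minus DEC. Epas1 was called in 2 of these tests. Its gut difference exceeded its homeostatic one by 2.15 ± 0.38 (limma adjusted p = 0.00641), where 0.775% of all genes were called, and the homeostatic difference lay below the DEC one (-2.56 ± 0.32, adjusted p = 0.000658), where 0.336% were. Gut and DEC differences of Epas1 were apart by -0.41 ± 0.37, with no call. The first of these rests on gut Foxp3+ replicate 1, without which it was 1.71 (adjusted p = 0.0640), and with all Epas1 probe sets averaged it was 0.97 (0.0786). Between gut and DEC pairs no member was called, 1.01% of all genes were, and 4 of the 27 had an unadjusted p under 0.05, the smallest being that of Ndrg1 (-1.30 ± 0.53, adjusted p = 0.435).

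Within lymph node Treg, the double-positive cells were higher than the double-negative cells in 2 genes, the neuron-type enolase Eno2 and the HIF prolyl hydroxylase Egln3, and lower in none. This is 7.41% of the 27 genes, beside 2.10% of all genes, 1.47% as higher. The share counts Eno2, whose limit is given below, and is thus no more than a description. Eno2 read 6.18 and 6.03 in double-negative cells, 6.34 and 6.98 in CD103+Klrg1- cells and 7.68 and 7.20 in double-positive cells. The 3 kinds did not overlap. Its group mean was above the filter of 6.27 only in the last 2 kinds, so Eno2 was tested through the groups where it is high, and its fitted difference (1.33, limma adjusted p = 0.00340) from a double-negative mean of 6.10, below the filter, is a description and not support for the count. Egln3, itself a HIF target that marks HIF for breakdown, was at 7.74 and 6.31, then 8.50 and 8.02, then 9.87 and 8.63. Its replicates were spread widely in the outer groups, and the difference was 2.22 ± 0.52 (limma adjusted p = 0.0268), while its other probe set differed by 0.95.

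Slc2a3 was at means of 10.89, 11.28 and 11.37 over these kinds, Ndrg1 at 9.48, 9.89 and 10.28, and Aldoc at 6.91, 7.42 and 7.89, none of them called. In the step from double-negative to CD103+Klrg1- cells no member was called, and 0.0959% of all genes were. There 2 members had an unadjusted p under 0.05, and Egln3 had the smallest (1.24 ± 0.52, adjusted p = 1.00). In the step from CD103+Klrg1- to double-positive cells none was called either, with 0.647% of all genes called and 2 members at an unadjusted p under 0.05, Eno2 with the smallest (0.78 ± 0.24, adjusted p = 0.306). The steps share arrays with the outer comparison and are not independent of it. Of 6 B cell genes 5 were above the filter in every lymph node kind, with sums of 1877 to 1958 in double-negative and 2478 to 3870 in double-positive cells, and their part in the result was not tested. Both calls were lost without double-negative replicate 2 (Eno2 0.0661, Egln3 0.597) or double-positive replicate 1 (Eno2 0.110, Egln3 0.561), and with the 4 arrays fitted alone.

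Gut Foxp3+ cells differed from lymph node Treg most in Epas1, and the 2 comparisons share the gut arrays. Against double-negative cells 4 of the 27 genes were higher (14.8%, beside 4.55% of all genes called and 2.43% higher), Epas1, Egln3, Aldoc and Slc2a3, and none was lower. Epas1 was at 10.79 and 9.90 in the gut cells and at 6.61 and 6.43 in the double-negative cells. That gap was 14.2-fold (3.83 ± 0.29, limma adjusted p = 2.98e-07), the largest ratio among the members in the 9 comparisons. The double-negative mean of 6.52 was just above the filter of 6.27. The dim 2nd Epas1 probe set, below the filter, differed by 0.061, and the difference ran from 1.94 to 4.27 over the alternatives. Egln3 read 9.77 and 9.34 in the gut cells and differed by 2.53 ± 0.52 (limma adjusted p = 0.00616), although its other probe set differed by 0.45. Aldoc differed by 1.29 ± 0.30 (limma adjusted p = 0.0155) and Slc2a3 by 1.01 ± 0.28 (0.0451), from the arrays given above and from double-negative levels of 7.0 and 6.82 for Aldoc and 11.05 and 10.74 for Slc2a3.

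Against double-positive cells Epas1 was again higher, with double-positive arrays at 6.82 and 7.21 (10.0-fold, 3.33 ± 0.29, limma adjusted p = 6.25e-06). Its dim 2nd probe set, below the filter, differed by 0.36. Eno2 was called as lower, with gut arrays at 6.16 and 5.86. Their mean of 6.01 is below the filter, which Eno2 passed only in the CD103+ lymph node kinds, so its fitted difference (-1.43, limma adjusted p = 0.00233) is again a description. Thus 2 of the 27 genes were called, 7.41%, beside 2.05% of all genes (0.743% higher, 1.31% lower). Eno2 is among these 2, so the share is a description as well. Ndrg1 had means of 8.74 in the gut and 10.28 in double-positive cells (adjusted p = 0.0770). Tissue and cell isolation differ with the group and cannot be told apart from it. Of 8 endothelial and stromal genes, 3 were above the filter in the gut Foxp3+ cells, with sums of 631 to 643 against 495 to 580 in the lymph node kinds. In gut Foxp3- cells, where Epas1 was as high, 4 were above it, with sums of 711 to 730. The myeloid sums of 1217 and 1338 in gut Foxp3+ cells lay within the lymph node range. The plasma cell gene Jchain was at 10.44 in the gut and 6.43 in double-negative cells. It was the 1 called of 4 plasma cell genes tested. Plasma cell sums were 3621 to 4967 in the gut Foxp3+ cells against 2110 to 3146 in the lymph node kinds, and 3783 to 4659 in DEC CD25+ cells. B cell sums were 777 to 855 in the gut against 1343 to 3870 in the lymph node kinds. Klrd1 was at 5.33 in the gut and 8.80 in double-positive cells (limma adjusted p = 0.0130). The part of these cells was not tested. Eno2 lost its call without double-positive replicate 1 (0.0549). Against double-negative cells, Slc2a3 and Aldoc lost theirs without any 1 of the 4 arrays (0.101 to 0.375 and 0.0667 to 0.164), and Egln3 without gut replicate 1 (0.0991) or double-negative replicate 2 (0.173).

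**Figure D3:**
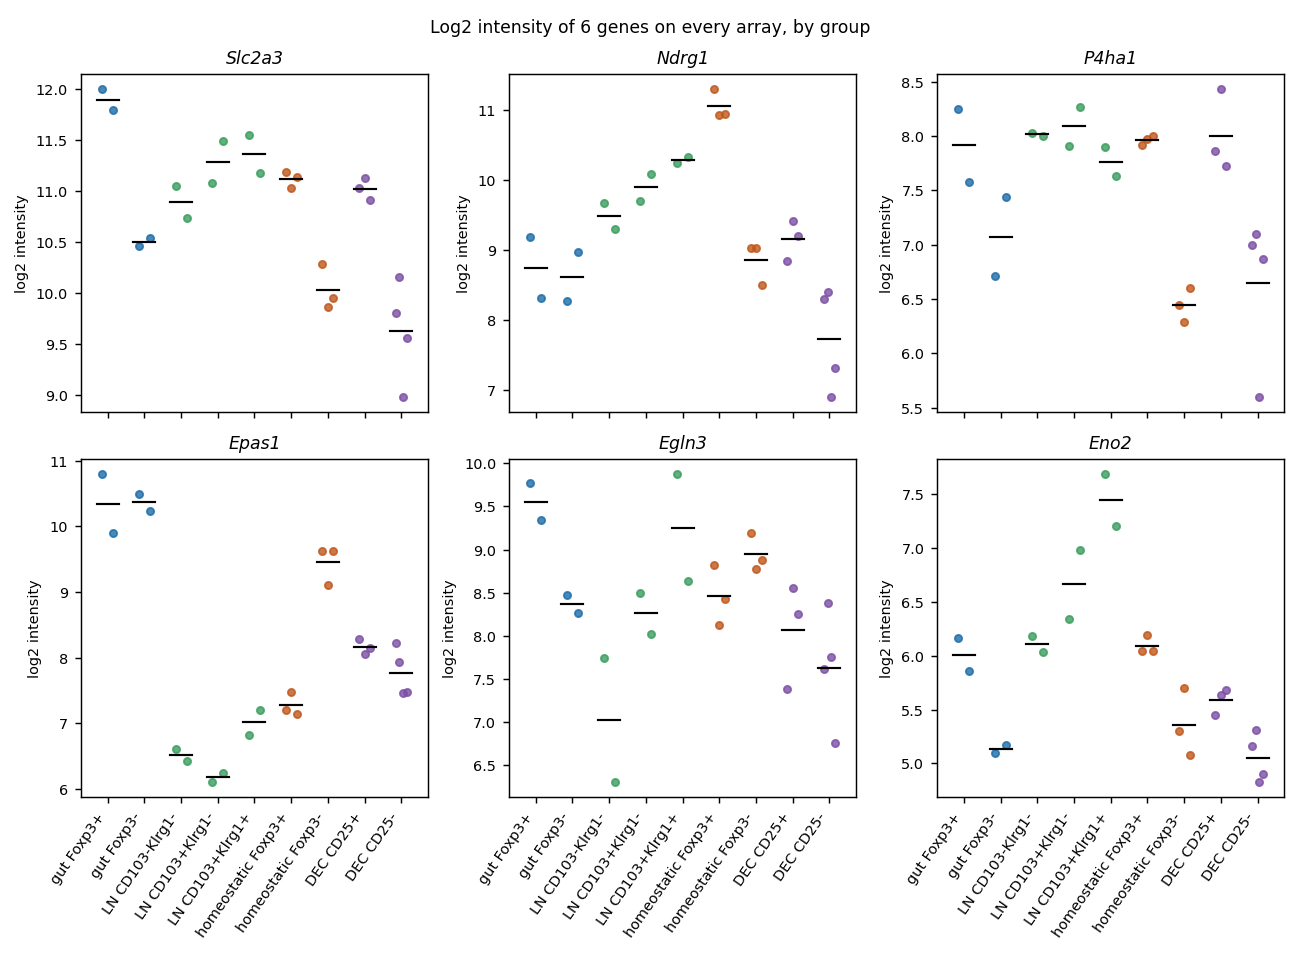
Log2 intensity of Slc2a3, Ndrg1, P4ha1, Epas1, Egln3 and Eno2 on every array (points, coloured by origin of the cells) in 9 groups, with the group mean as a line. The gut arrays of Epas1 lie between 9.90 and 10.79, above the 6 lymph node arrays at 6.11 to 7.21, and Ndrg1 is highest in homeostatic Foxp3+ cells, at 10.92 to 11.29.

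Homeostatic Foxp3+ cells were higher than DEC CD25+ cells in 6 of the 27 genes and lower in 2. The strain, the T cell receptor, the host and the marker of the sort all differ with the group, as does the Xist signal, and 24.1% of all genes were called (14.4% higher, 9.75% lower), against 29.6% of the members. The share of members is thus near that of all genes, and the values are a description of which members take part. Along the glycolytic chain, Tpi1 was at 9.85, 9.96 and 10.21 in homeostatic cells and 7.95, 9.08 and 8.68 in DEC cells (1.44 ± 0.44, limma adjusted p = 0.0246). Phosphoglycerate kinase, Pgk1, one of the brightest probe sets here, was at 14.01, 13.83 and 13.87 against 12.96, 12.86 and 12.81. Its replicates were tight, and the difference was 1.03 ± 0.14 (limma adjusted p = 3.42e-05). Ldha, which makes lactate, read 13.13, 12.99 and 13.11 against 11.71, 12.13 and 11.65 (1.25 ± 0.21, adjusted p = 0.000328).

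The hypoxia targets Ndrg1 (1.90 ± 0.34, limma adjusted p = 0.000615), Ero1a (1.30 ± 0.23, 0.000539) and Bnip3 (1.15 ± 0.22, 0.00107) were also higher in the homeostatic cells. The other probe sets of Ndrg1 differed by 1.99, 1.48, 0.59 and -0.041, the last from a probe set above the filter. Ero1a, an oxidase of protein folding, was at 10.54, 10.07 and 10.12 against 9.05, 9.03 and 8.73, while its other probe sets, both above the filter, differed by 0.34 and 0.54, and the mean of all by 0.73. Bnip3 was at 8.89, 8.78 and 8.74 against 7.72, 7.98 and 7.27. In both genes the DEC CD25- arrays were low as well, at 8.18 to 9.16 for Ero1a and 6.34 to 7.27 for Bnip3, and the homeostatic Foxp3- arrays were at 10.25 to 10.83 and 8.22 to 8.73. The gap thus appeared in both sorts of each kind of cell.

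Slc2a1, the most widely expressed glucose transporter, and Epas1 ran the other way. Slc2a1 was at 8.23, 8.47 and 8.55 in homeostatic Foxp3+ cells and 9.72, 9.85 and 10.53 in DEC CD25+ cells (-1.62 ± 0.26, limma adjusted p = 0.000216), and its other probe sets differed by -1.60 and -1.67. On the probe set used, all 7 DEC arrays lay between 9.55 and 10.91, and the 16 other arrays between 7.93 and 8.83. Another probe set had closer means, 8.43 ± 0.73 (SD, n = 4) in DEC CD25- and 8.08 ± 0.42 (SD, n = 2) in gut Foxp3+ cells. Epas1 differed by -0.88 ± 0.24 (limma adjusted p = 0.0117), and by -0.38 (0.0759) with all its probe sets averaged. The other glucose transporter Slc2a3 was alike in level, 11.12 and 11.03 (0.092 ± 0.23). Cell cycle genes stood higher on the homeostatic arrays, with sums of 39190 to 45613 against 13297 to 17403 and 17 of 23 called, and their part in the glycolytic values was not tested. Tpi1 lost its call without any 1 homeostatic array or without DEC CD25+ replicate 1 or 3 (adjusted p = 0.0503 to 0.102).

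**Figure D4:**
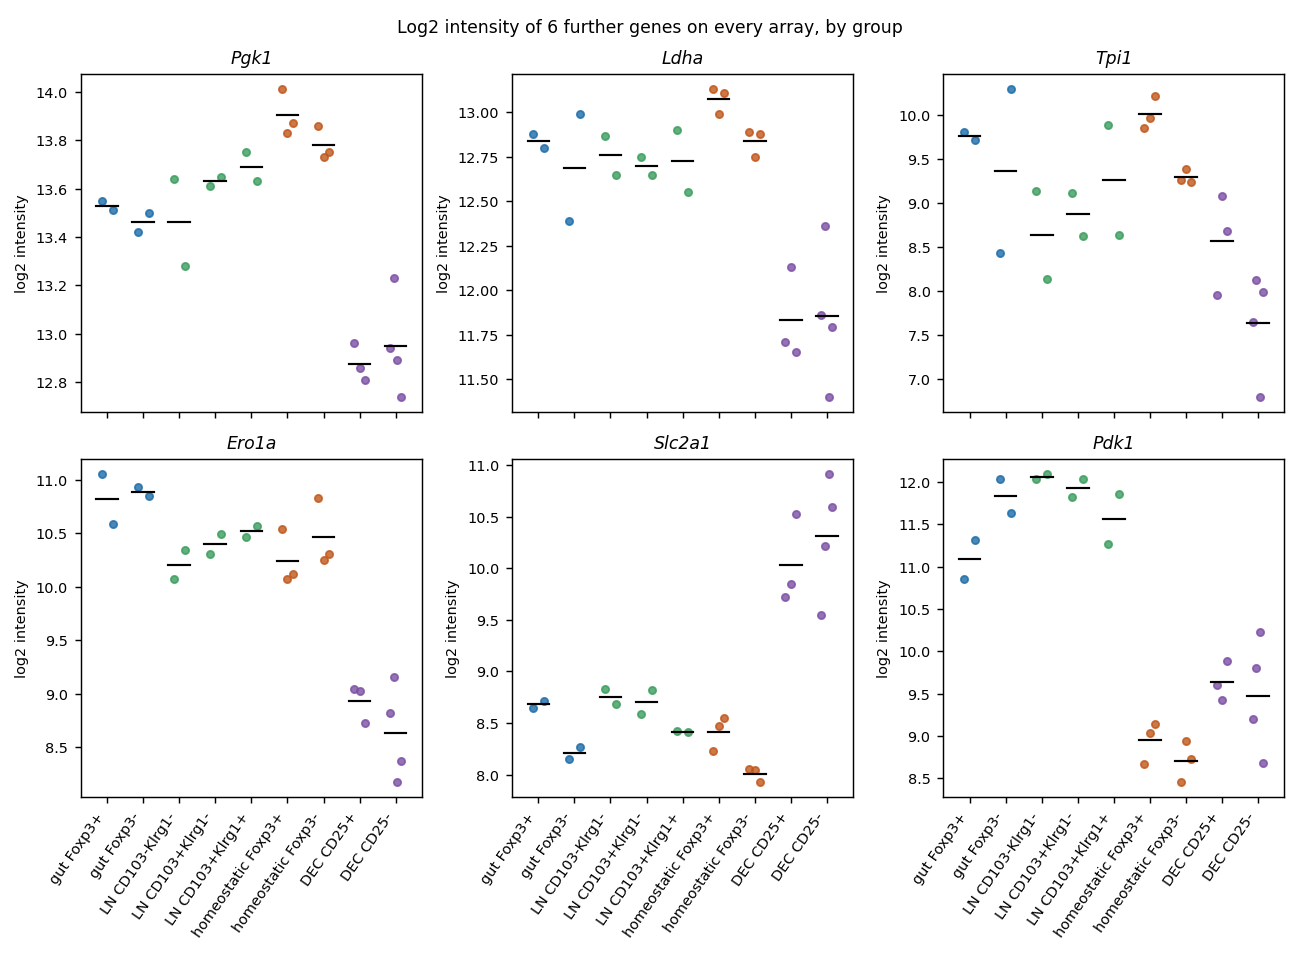
Log2 intensity of Pgk1, Ldha, Tpi1, Ero1a, Slc2a1 and Pdk1 on every array (points, coloured by origin of the cells) in 9 groups, with the group mean as a line. The 7 DEC arrays are low in Pgk1, Ldha and Ero1a and high in Slc2a1, and Pdk1 is at 10.86 to 12.09 on gut and lymph node arrays and at 8.46 to 10.23 on arrays of transferred cells.

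Pdk1, a kinase that inhibits pyruvate dehydrogenase, had the 2nd widest range of group means after Epas1. It was called in no comparison, since each comparison stayed within one kind of mouse or between the transferred cells. Its gut arrays were at 10.86 and 11.32 (Foxp3+) and 12.04 and 11.63 (Foxp3-). The lymph node arrays were at 12.04 and 12.09, 11.82 and 12.04, and 11.27 and 11.86, from double-negative to double-positive. Homeostatic arrays were at 8.67, 9.04 and 9.14 and at 8.46, 8.94 and 8.73, and DEC arrays at 9.60, 9.43 and 9.89 and at 9.20, 9.80, 10.23 and 8.68, positive sorts first. Every array of C57BL/6 cells was thus above every array of transferred cells. The other probe sets of Pdk1 split the groups in the same way, at means of 10.11 to 10.83 against 7.16 to 8.21, 6.33 to 7.57 against 4.38 to 4.58, and 7.32 to 8.34 against 5.49 to 6.27. Strain, transfer and tissue differ together here and cannot be told apart. This difference was not tested.

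The remaining 12 tested genes were called nowhere. Their ranges of group means ran from 0.40 for Pfkm, a muscle-type phosphofructokinase, to 1.80 for Pfkp, the platelet type. Hif1a was above the filter in every group, from 12.05 in gut Foxp3- to 13.33 in gut Foxp3+ cells. Another bright Hif1a probe set was at 11.63 and 10.01 in the gut pair, positive sort first. It was at 11.58 and 10.34 in the homeostatic pair and at 11.03 and 10.86 in the DEC pair. The dimmer probe sets also had higher means in the positive sort of each pair, up to 8.42 against 6.97 in the DEC pair. These probe sets were not tested singly. Slc16a1, which carries lactate and pyruvate, lay between 7.88 and 8.84, Hk1 between 8.86 and 9.48, and the HIF hydroxylase Egln1 between 9.99 and 10.83. Pyruvate kinase Pkm ranged from 9.04 to 10.72, Aldoa from 10.81 to 12.07, Pgam1 from 9.45 to 10.58, Pfkl from 7.76 to 8.63 and Pfkfb3, which sets the pace of phosphofructokinase, from 7.0 to 7.74. Of the 27 tested genes, 24 were above the filter in all 9 groups.

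A few genes of related pathways were called, in comparisons where 0.495% to 4.55% of all genes were called. Of 13 tested genes of oxygen sensing, Arnt2, a partner of HIF α chains, was higher in homeostatic Foxp3+ than Foxp3- cells (1.75 ± 0.22, limma adjusted p = 0.000121) and in lymph node double-positive than double-negative cells (3.42 ± 0.26, 4.88e-07). Of 31 other hypoxia targets, 2 were higher in gut Treg than in double-negative cells, Bhlhe40 (3.12 ± 0.61, 0.00423) and the lipid droplet protein Hilpda (1.83 ± 0.39, 0.00758). None of the 31 was called in the gut, homeostatic or DEC pair. Among 23 regulators of PI3K, mTOR and AMPK, Rragd, a GTPase that recruits mTOR to lysosomes, was higher in Foxp3+ cells of the gut (2.74 ± 0.33, 5.40e-05) and of homeostatic progeny (1.49 ± 0.27, 0.00447), and the mTOR inhibitor Sesn1 in homeostatic Foxp3+ (1.76 ± 0.23, 0.000210) and DEC CD25+ cells (1.53 ± 0.22, 0.00197).

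In the gut, homeostatic and DEC pairs, no gene was called among 32 of oxidative phosphorylation or 16 of fatty acid oxidation. Nor was any among 11 of mitochondrial pyruvate entry and use, 9 of the pentose phosphate pathway or 14 of the Myc network. Of 19 genes of the tricarboxylic acid cycle 1 was called, Mdh1 in the gut (0.78 ± 0.19, limma adjusted p = 0.0288). Over all genes 2.70%, 1.76% and 0.495% were called in these pairs, so a list of this size with no call does not stand apart. The median difference of the oxidative phosphorylation genes was 0.014 in the gut, 0.16 in the homeostatic pair and 0.57 in the DEC pair, against medians over all genes of -0.0075, -0.027 and 0.16. The glycolytic isoforms outside the list, 19 tested, had no call in these pairs. The muscle enolase Eno3 was lower in double-positive than double-negative cells (-1.77 ± 0.40, limma adjusted p = 0.0208). Eno2 had a higher mean there, given above as a description.

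In the comparisons with lymph node kinds, a few genes of the same lists were called. Over all genes, 4.55% and 2.05% were called for gut Treg against double-negative and double-positive cells. The steps between kinds had 0.0959% and 0.647%. Arnt2 was higher in gut Treg than in double-negative cells (1.65 ± 0.26, limma adjusted p = 0.000868) and lower than in double-positive cells (-1.76 ± 0.26, 0.000889), and it was also called in both steps between the lymph node kinds (1.47, 0.0313 and 1.94, 0.000736). Bhlhe40 (3.66 ± 0.61, 0.00206) and Hilpda (2.04 ± 0.39, 0.00581) were higher in gut Treg than in double-positive cells too. Of 8 amino acid transporters of activated T cells, the shared heavy chain Slc3a2 was higher in gut Treg than in double-negative (2.16 ± 0.38, 0.00208) and double-positive cells (1.73 ± 0.38, 0.0209). Eno3 (-1.85 ± 0.40, 0.00908) and Rragd (-1.19 ± 0.33, 0.0471) were lower in gut Treg than in double-negative cells. These comparisons share arrays.

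Between homeostatic Foxp3+ and DEC CD25+ cells 24.1% of all genes were called, 14.4% higher and 9.75% lower. The counts of each list are a description to be read beside these shares. Of 23 regulators of PI3K, mTOR and AMPK 7 were lower and none higher, with the insulin receptor substrate Irs2 at -3.02. Fatty acid oxidation had 5 of 16 genes higher and none lower, the tricarboxylic acid cycle 6 of 19 higher and 1 lower, oxidative phosphorylation 4 of 32 higher and 1 lower, and the pentose phosphate pathway 3 of 9 higher, among them the transketolase Tkt (1.38). Other hypoxia targets went both ways, 4 of 31 higher and 3 lower, with the mTOR inhibitor Ddit4 at 3.67, Anxa2 at 2.99 and Insig2 at 2.29. The glycolytic isoforms outside the list split evenly, 2 higher and 2 lower of 19, and the lactate dehydrogenase chain Ldhb was lower (-2.67 ± 0.35, limma adjusted p = 2.93e-05), where Ldha was higher. The Myc network had 3 of 14 genes higher and 3 lower, and mitochondrial pyruvate entry and use 1 of 11 higher and 3 lower. Amino acid transporters had 2 of 8 lower, and oxygen sensing 1 of 13 higher, Arnt2, and 2 lower.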

How the data were processed

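Deposited values were 1 intensity per probe set and array on a linear scale, made by the authors with RMA in GenePattern per the series' design text, with version not given in the sources used here. RNA was amplified over 2 rounds per the labels' protocol, which favours transcript ends. Values from 4.71 to 26750 were turned into log2. Probe sets that name 1 gene in the platform annotation were kept (34945 of 45101), 1 per gene by highest mean. Genes with a group mean above the median of all values were tested (12516) with limma 3.58.1 in R 4.3.3, with 23 arrays in 9 groups sharing 1 estimate of spread (14 residual degrees of freedom). The genes, lists and tests were chosen with earlier results of these data known. Genes called in a comparison, or among the 6 widest ranges, are given array by array, and up to 3 called genes per list are named. The number of arrays limits the precision. Alternatives were another normalization, no filter, averaged probe sets, array weights, groups alone, paired replicate numbers and each array left out, and the fit was tested on simulated data. Same-numbered residuals correlated at 0.49 to 0.66 in homeostatic and 0.38 to 0.51 in DEC pairs, which was taken as pairing. The main fit had no pairing term, and pairing was run only as an alternative. With it, 215 of all genes were higher and 265 lower in the homeostatic pair, against 94 and 126 in the main fit. In the DEC pair 105 were higher and 34 lower, against 50 and 12. Residuals of lymph node kinds correlated at 0.37, 0.39 and 0.72, but these kinds share only 2 numbers, so pairing was not taken there. With pairing, Egln3 kept its call between double-positive and double-negative cells, as did Eno2, whose calls are a description.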

Additional observations from a re-analysis of the deposited data

Results flagged for a closer look

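Within the 4 DEC CD25- arrays, the only group with more than 3, some genes had 1 array far from the others. Replicate 3, which has the largest Gapdh 3′ to 5′ gap, was far below the rest in P4ha1 (5.60), Egln1 (9.80) and Mxi1 (7.64). Replicate 1 was far above the rest in Pfkm (8.62). Chance alone gives about 1 such array in 20 groups, and 27 genes were examined.

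The difference of Epas1 between sorts was not the same in the 3 kinds of cells. Between gut and homeostatic pairs it differed by 2.15 (limma adjusted p = 0.00641), and between homeostatic and DEC pairs by -2.56 (limma adjusted p = 0.000658).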

How the results depend on the processing

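No called member's difference changed direction under the alternatives run, which did not cover the genes of the related pathways. The median of all genes in the DEC pair did, from 0.16 to -0.050 (quantile) and -0.023 (cyclic loess). Of 430 values of single genes under alternatives, 377 kept their side of the threshold and 53 lost the call. Counts of called members that moved by more than 1.5 times were these. In the gut pair (3), groups alone gave 0, paired replicate numbers 6 and the fits without the dim or all DEC arrays, both chosen after seeing the data, 5. In the homeostatic pair (5), array weights gave 11 and groups alone 8. In the DEC pair (1), quantile normalization, averaged probe sets and the replicate block gave 2, cyclic loess 3 and groups alone 0. Double-positive against double-negative cells (2) gave 0 alone, gut against double-negative cells (4) 8 with array weights, and homeostatic against DEC cells (8) 18 with weights and 13 alone. Differences between gut and homeostatic pairs (1) gave 2 with quantile normalization, weights, groups alone, the replicate block or no DEC arrays, and 3 with cyclic loess or without the dim arrays. Gut against DEC pairs (0) gave 1 with the replicate block, and homeostatic against DEC pairs (1) 3 with weights. The cause was not tested. Leaving out 1 array gave 0 to 3 in the gut pair, 2 to 4 in the homeostatic pair, 1 to 4 in the DEC pair, 0 to 2 for double-positive against double-negative cells, 1 to 2 for gut against either lymph node kind, 7 to 8 for homeostatic against DEC cells and 0 to 1 for gut against homeostatic and gut against DEC pairs. Pairing changed no other call; gut numbers share only a number (residual r = -0.07). Groups of 2 to 4 arrays, without detection calls, limit what dim genes can show.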

Other observations

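Outside the listed genes, those whose values followed the mean of the 27 tested genes most closely over the 23 arrays were Lcp1, Icam1 and Pdia6 (r = 0.94 each), Actg1 (0.93) and Uhrf1bp1l (0.92). Lcp1 and Actg1 encode proteins of the actin skeleton, Icam1 an adhesion receptor and Pdia6 a protein disulphide isomerase. They were picked from 12516 genes for this likeness, and the arrays fall into groups and differ in brightness, so the correlations are a description.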
